A study of Mus musculus with 7 samples.

Results

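Thin filaments are the actin cables of the sarcomere. The genes described here are 10 of the 23337 gene symbols in the count table, taken by name: the actins Actc1, Acta1 and Acta2, the troponin subunits Tnnt1, Tnnt2, Tnni1, Tnni3 and Tnnc1, the tropomyosin Tpm1 and the leiomodin Lmod2. All 10 were in the table and all 10 passed the filter on low counts. Each library was made from poly(A) RNA of 1 mouse embryo, whose left ventricle had been dissected out at embryonic day 12.5, and was sequenced as single 50-base reads. Embryos of both groups carried Gt(ROSA)26Sortm1(cre/ERT2)Tyj, a tamoxifen-activated Cre expressed from the widely active Rosa26 locus. The 2 libraries labelled mutant came from Tbx5flox/flox embryos, with loxP sites in both alleles of Tbx5, a T-box transcription factor of the heart, and the 5 control libraries from Tbx5+/+ embryos. Tamoxifen was injected into the peritoneum of the mothers of both groups at E11.5, 1 day before collection. The comparison asks which left ventricular transcripts depend on Tbx5 shortly after its deletion. The labels do not tie the embryos to litters, so p-values measure only the spread between these samples.

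In striated muscle, actin polymerises into the thin filament, tropomyosin lies along it, and the troponin complex sits on tropomyosin. Troponin C binds calcium, troponin I holds the filament in its inhibited state, and troponin T ties the complex to tropomyosin. The embryonic heart uses slow skeletal troponin I (Tnni1) and gradually changes to the cardiac form (Tnni3), and it also transcribes the skeletal and smooth muscle actins (Acta1, Acta2) beside cardiac actin (Actc1), so the Tnni1 to Tnni3 and Acta1 to Actc1 ratios serve as readings of maturation.

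Library totals were 20268208 and 22680280 counts in the libraries labelled mutant and 20385656 to 24440806 in the controls. Tbx5 itself was at 93.9 and 114 CPM (counts scaled to the library total after adjustment by the trimmed mean of M-values, TMM) in the libraries labelled mutant, against 64.2 to 98.3 CPM in the controls. Its log2 fold change of 0.43 (SE 0.15) had an adjusted p of 0.181 by the edgeR quasi-likelihood test. Because all exons are summed, deleted or not, this level is no check of the recombination, and the genotypes rest on the labels. Control replicates 1 and 3 had 0.689 and 1.09 CPM of Xist, which coats the inactive X chromosome, while both libraries labelled mutant and the other 3 controls had 311 to 509 CPM.

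The troponin genes lie in pairs in the mm10 (GRCm38) assembly, and the promoters of the paired T and I genes are shown because the pairs differed in where the libraries labelled mutant fell. Tnni1 (chromosome 1, 135779434 to 135810989, plus strand) and Tnnt2 (chromosome 1, 135836354 to 135852260, plus strand) were separated by 25364 bases that hold 1 annotated gene, Lad1. Tnnt1 (chromosome 7, 4504570 to 4516382, minus strand) and Tnni3 (chromosome 7, 4518305 to 4524229, minus strand) were separated by 1922 bases with no gene between them in the GENCODE annotation. The windows below are RefSeq promoter sequences of GRCm38.p6, 5′ to 3′ on the strand of the gene, from 250 bases before to 50 bases after the RefSeq start, which for Tnni1, Tnnt1 and Tnni3 lies inside the wider gene span of GENCODE just given. The capitals mark matches on either strand to AGGTGT (bound by T-box factors), CATTCC (the M-CAT element bound by TEAD factors), TATAAA (the TATA box), the CArG box (bound by SRF) or the MEF2 motif.
Tnnt2, chr1:135836084-135836383, plus strand: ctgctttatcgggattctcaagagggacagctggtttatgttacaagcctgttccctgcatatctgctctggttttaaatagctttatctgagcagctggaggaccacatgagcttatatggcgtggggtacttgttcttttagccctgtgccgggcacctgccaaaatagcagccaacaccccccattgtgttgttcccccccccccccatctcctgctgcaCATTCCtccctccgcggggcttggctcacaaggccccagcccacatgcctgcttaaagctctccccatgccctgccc
Tnni1, chr1:135799171-135799470, plus strand: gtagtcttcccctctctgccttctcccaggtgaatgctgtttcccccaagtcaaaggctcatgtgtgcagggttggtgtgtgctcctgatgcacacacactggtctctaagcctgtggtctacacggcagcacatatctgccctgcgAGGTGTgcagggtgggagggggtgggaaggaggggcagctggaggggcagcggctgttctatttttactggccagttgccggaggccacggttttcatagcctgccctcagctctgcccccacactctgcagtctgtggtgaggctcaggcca
Tnnt1, chr7:4515926-4516225, minus strand: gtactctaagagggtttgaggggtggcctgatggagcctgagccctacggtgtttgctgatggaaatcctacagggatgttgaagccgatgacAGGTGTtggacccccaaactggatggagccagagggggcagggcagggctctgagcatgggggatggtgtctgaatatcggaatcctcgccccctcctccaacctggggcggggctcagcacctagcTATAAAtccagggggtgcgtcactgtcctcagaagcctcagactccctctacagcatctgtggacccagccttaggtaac
Tnni3, chr7:4522479-4522778, minus strand: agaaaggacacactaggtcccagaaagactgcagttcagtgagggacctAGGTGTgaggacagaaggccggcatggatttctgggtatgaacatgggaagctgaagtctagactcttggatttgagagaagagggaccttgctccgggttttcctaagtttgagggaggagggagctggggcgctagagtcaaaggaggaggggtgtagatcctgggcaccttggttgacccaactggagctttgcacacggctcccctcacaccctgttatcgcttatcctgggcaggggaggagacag

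The AGGTGT match stood 103 bases before the annotated start in the Tnni1 window, 157 bases before it in Tnnt1 and 201 bases before it in Tnni3. The Tnnt2 window held no AGGTGT and had a CATTCC 27 bases before the start. Over the 12 windows that the RefSeq table gives for the 10 genes, AGGTGT occurred for 3 genes, CATTCC for 5 and TATAAA for 3. The CArG box occurred for 2 genes, Actc1 and Acta1, and the MEF2 motif for 0. Among all 32851 mouse windows of the same length, 13.7% held AGGTGT, 14.7% CATTCC, 13.6% TATAAA, 1.63% the CArG box and 3.19% the MEF2 motif. A match describes the letters of the window and no binding was measured. The windows printed were chosen by the expression values, and any tie of the matches to those values was not tested.

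By the quasi-likelihood test of edgeR, with p-values adjusted over 14691 genes by the Benjamini-Hochberg method, 0 of the 10 genes passed a threshold of 0.05, against 200 (1.36%) of all genes tested. None was called higher, as 0.463% of all genes were, and none lower, as 0.899% were. At an unadjusted p under 0.05 there were 4 of 10, Tnnt2, Lmod2, Tnni1 and Acta2, against 17.6% of all genes tested. DESeq2 called 2 of the 10, Tnnt2 and Tnni1, against 783 (5.24%) of all genes it tested, and limma-voom called 0, against 114 (0.776%). None of the 10 was in the authors' deposited table of significant genes, which holds 668 of the 14691 genes tested here. Both libraries labelled mutant lay outside the control range for 3 of the 10 (20.2% of all genes tested), above it for Tnnt2 and Tnni1 and below it for Lmod2. The median log2 fold change of the 10 genes was -0.01, as was that of all genes tested, at -0.01.

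**Figure D1:**
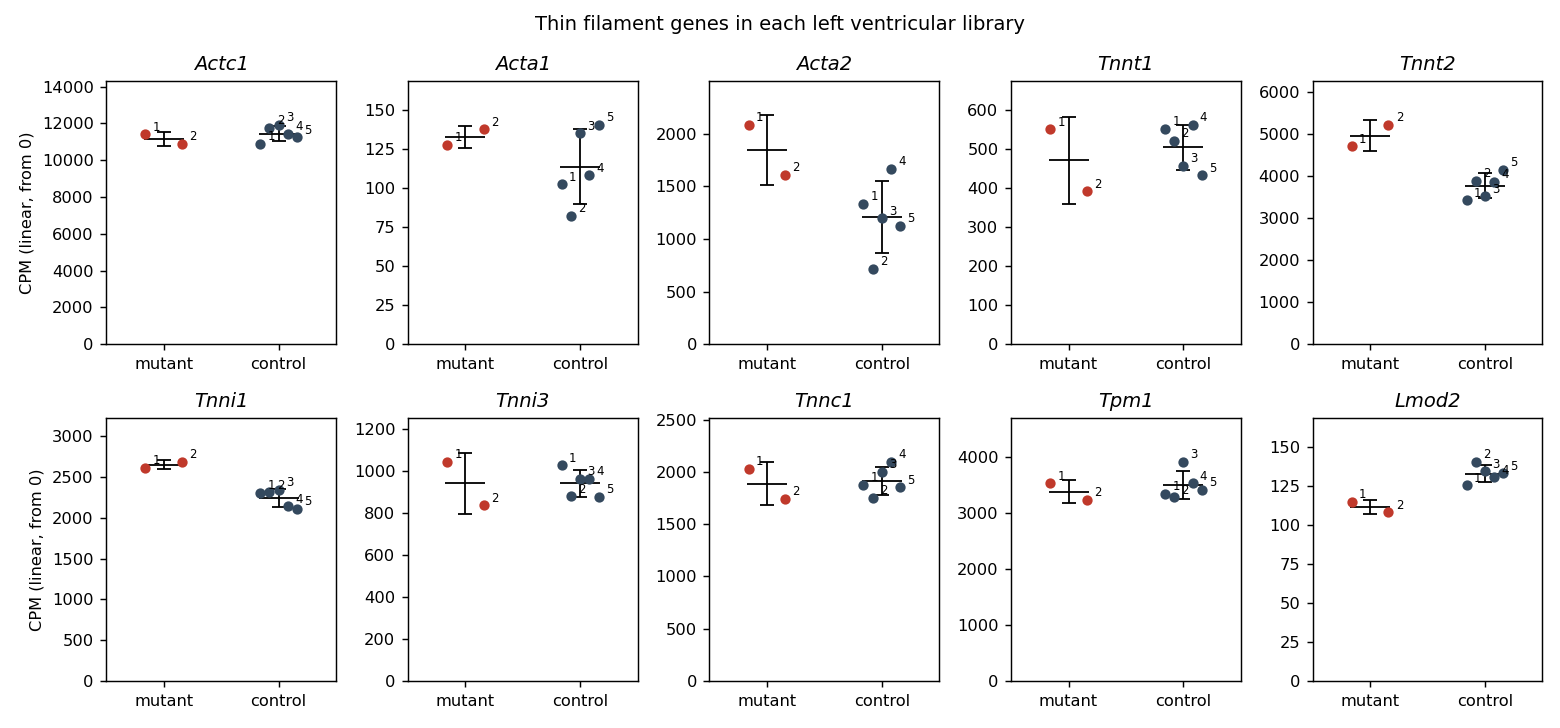
CPM of the 10 thin filament genes in each library, on linear axes from 0, with libraries labelled mutant in red and controls in dark blue. Small digits are replicate numbers, and the bars show the mean and SD of 2 and 5 libraries. Both libraries labelled mutant stand above every control for Tnnt2 and Tnni1 and below every control for Lmod2.

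The actins spanned a wide range of abundance. Actc1 encodes cardiac alpha-actin, the main actin of the heart. Actc1, on chromosome 2 (114047282 to 114053548, minus strand), was at 11422 and 10882 CPM in the libraries labelled mutant, against a control minimum of 10879, median of 11435 and maximum of 11923 CPM in replicates 1 to 5. Both libraries labelled mutant thus fell inside the control range, though the second stood just above its lower end. The log2 fold change was -0.04 with a 95% interval of -0.22 to 0.15, the narrowest interval among the actins. It had the lowest relative spread among controls of all 10 genes, with a coefficient of variation of 3.63%.

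Acta1, on chromosome 8 (123891769 to 123894751, minus strand), encodes skeletal muscle alpha-actin. Its levels were 128 and 138 CPM in the libraries labelled mutant, against 102, 82.2, 135, 108 and 140 CPM in control replicates 1 to 5. The groups overlapped, since control replicates 3 and 5 stood at the same height as both mutant replicates. The log2 fold change was 0.22 (SE 0.18, 95% interval -0.17 to 0.62), and it was 0.13 without control replicate 2, the lowest of the 7.

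Acta2, on chromosome 19 (34241090 to 34255590, minus strand), encodes smooth muscle alpha-actin, which early cardiomyocytes also transcribe. It was at 2082 and 1607 CPM in the libraries labelled mutant, against 1335, 717, 1194, 1663 and 1124 CPM in control replicates 1 to 5. Mutant replicate 1 was above every control and mutant replicate 2 was below control replicate 4, so the groups overlapped. The log2 fold change of 0.61 (SE 0.25), a 1.53-fold difference with a 95% interval of 0.04 to 1.18 on the log2 scale, was the largest of the 10 in size and had an adjusted p of 0.249 by the edgeR quasi-likelihood test. The control coefficient of variation of Acta2 was 28.5% and that of Acta1 21.2%, while the other 8 genes had 3.63% to 11.4%. Of the 2050 genes with a control mean of at least 100 CPM, 0.829% varied more among the controls than Acta2 and 2.68% more than Acta1, and the median of these genes was 7.6%.

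Smooth muscle markers other than Acta2 were measured beside it. Their summed level was 1678 and 1529 CPM in the libraries labelled mutant, against 1334 to 1572 CPM in the controls. By edgeR 0 of the 9 were called, against 1.36% of all genes tested. An unadjusted p under 0.05 was found for 2, against 17.6% of all genes tested, and a negative log2 fold change for 6. The largest part of the sum came from Des, the intermediate filament desmin, which is also a gene of cardiomyocytes. Des was at 948 and 940 CPM in the libraries labelled mutant, against 627 to 898 CPM in the controls. Cnn1, which encodes calponin, was below every control, at 290 and 263 CPM in the libraries labelled mutant, against 327 to 411 CPM in the controls, and Des and Cnn1 were the 2 genes with an unadjusted p under 0.05 by edgeR. Myh11, the smooth muscle myosin heavy chain, was at 1.04 and 1.23 CPM in the libraries labelled mutant and at 0.247 to 10.04 CPM in the controls. Tagln, an actin-binding protein of smooth muscle and of the embryonic heart, was at 259 and 178 CPM in the libraries labelled mutant, against 133 to 253 CPM in the controls, with control replicate 4 the highest control for both Tagln and Acta2. The part of smooth muscle cells in the Acta2 values was not tested, and in bulk tissue fewer cells of a type and less RNA per cell cannot be told apart.

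The actin coding sequences are close to each other, which bears on how short reads can be assigned. The reading frames of Acta1 and Actc1, both of 1134 bases, were 86.2% identical base by base, those of Acta2 and Actc1 82.5%, and those of Acta1 and Acta2 85.4%. The longest run that the Acta1 and Actc1 transcripts shared without a mismatch was 29 bases, shown in lower case to give the scale of the overlap.
Acta1 and Actc1, chromosome 8 for Acta1, bases 1036 to 1064 of its longest coding transcript: ctggctcccagcaccatgaagatcaagat
This run was shorter than the 50-base reads, and no window of 50 bases in the Actc1 transcript occurred in a transcript of another gene. Of the Acta1 windows 2.22% and of the Acta2 windows 0.352% did, shared with Actb, Actg1, actin pseudogenes or predicted genes and none with each other or with Actc1. In the longest coding transcripts of the other 7 genes, no window of 50 bases occurred in a transcript of another gene. Exons outside these transcripts were not searched. How reads with a mismatch or with several matches were counted is not given in the sources used here.

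Of the troponin T genes, Tnnt2 encodes the cardiac form and Tnnt1 the slow skeletal form. Tnnt2 was at 4705 and 5217 CPM in the libraries labelled mutant, against 3422, 3888, 3520, 3864 and 4148 CPM in control replicates 1 to 5. Both libraries labelled mutant exceeded the highest control, replicate 5. The libraries labelled mutant averaged 4961 ± 362 CPM (SD, n = 2) and the controls 3768 ± 296 CPM (SD, n = 5), a 1.32-fold difference (log2 fold change 0.40, SE 0.10, 95% interval 0.18 to 0.62). Tnnt2 did not pass, with an edgeR adjusted p of 0.0814, although it did without control replicate 5, at 0.0489. Tnnt1 was at 551 and 393 CPM in the libraries labelled mutant, against 553, 523, 457, 563 and 434 CPM in control replicates 1 to 5. Mutant replicate 1 stood among the highest controls and mutant replicate 2 below all of them. Its log2 fold change of -0.10 (SE 0.15) became 0.13 without mutant replicate 2.

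Of the troponin I genes, Tnni1 was at 2616 and 2688 CPM in the libraries labelled mutant, against 2303, 2314, 2344, 2143 and 2106 CPM in control replicates 1 to 5. The 2 groups did not overlap. The libraries labelled mutant averaged 2652 ± 51.2 CPM (SD, n = 2) and the controls 2242 ± 109 CPM (SD, n = 5), a 1.18-fold difference (log2 fold change 0.24, SE 0.09, 95% interval 0.05 to 0.43) with an adjusted p of 0.181 by the edgeR quasi-likelihood test. Tnni3 was at 1043 and 835 CPM in the libraries labelled mutant, against 1025, 878, 962, 961 and 875 CPM in control replicates 1 to 5. Here the libraries labelled mutant were the highest and the lowest of the 7, and their mean of 939 ± 147 CPM (SD, n = 2) was close to the control mean of 940 ± 63.8 CPM (SD, n = 5). The log2 fold change of Tnni3 had a 95% interval of -0.24 to 0.24, and its sign turned under 11 of the 18 alternative fits.

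Tnnc1, on chromosome 14 (31208312 to 31211729, plus strand), encodes the troponin C of cardiac and slow skeletal muscle. It was at 2032 and 1742 CPM in the libraries labelled mutant, against a control minimum of 1751, median of 1876 and maximum of 2098 CPM. Mutant replicate 1 was inside this range and mutant replicate 2 just below it, and the log2 fold change was -0.02 (SE 0.10, 95% interval -0.25 to 0.20). Among the 3 subunits of the cardiac troponin complex, the T subunit Tnnt2 had both libraries labelled mutant above the control range. The I subunit Tnni3 had 1 above and 1 below it, and the C subunit Tnnc1 had 1 inside and 1 below it. Whether the difference of Tnnt2 differs from those of Tnnc1 and Tnni3 was not tested.

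Set side by side, the neighbours Tnni1 and Tnnt2 on chromosome 1 were both above every control in both libraries labelled mutant, as were 9.73% of all genes tested. Lad1, which lies between them and encodes a protein of the basement membrane zone, was at 3.32 and 3.50 CPM in the libraries labelled mutant and at 3.17 to 4.65 CPM in the controls. The neighbours Tnnt1 and Tnni3 on chromosome 7 were both below every control in mutant replicate 2, as were 26.7% of all genes tested. In mutant replicate 1, Tnnt1 was inside the control range and Tnni3 above it, where 18.6% of all genes tested lay.

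Tpm1, on chromosome 9 (67022590 to 67049406, minus strand), encodes alpha-tropomyosin. It was at 3537 and 3241 CPM in the libraries labelled mutant, against 3347, 3286, 3925, 3534 and 3423 CPM in control replicates 1 to 5. Control replicate 3 was the highest of the 7 libraries and mutant replicate 2 the lowest. The log2 fold change was -0.05 (SE 0.10, 95% interval -0.26 to 0.17). Tpm1 makes many transcripts by alternative splicing for muscle and other cells, and the counts per gene do not separate them.

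Lmod2, on chromosome 6 (24597762 to 24605414, plus strand), encodes leiomodin 2, a cardiac protein that nucleates actin and lengthens thin filaments at their pointed ends. It was at 115 and 108 CPM in the libraries labelled mutant, against 125, 140, 134, 130 and 133 CPM in control replicates 1 to 5. Both libraries labelled mutant were below the lowest control, as for 10.4% of all genes tested. The libraries labelled mutant averaged 111 ± 4.68 CPM (SD, n = 2) and the controls 133 ± 5.5 CPM (SD, n = 5), a log2 fold change of -0.25 (SE 0.08, 95% interval -0.43 to -0.08) with an adjusted p of 0.14 by the edgeR quasi-likelihood test. It was the one gene of the 10 with both libraries labelled mutant below the controls.

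**Figure D2:**
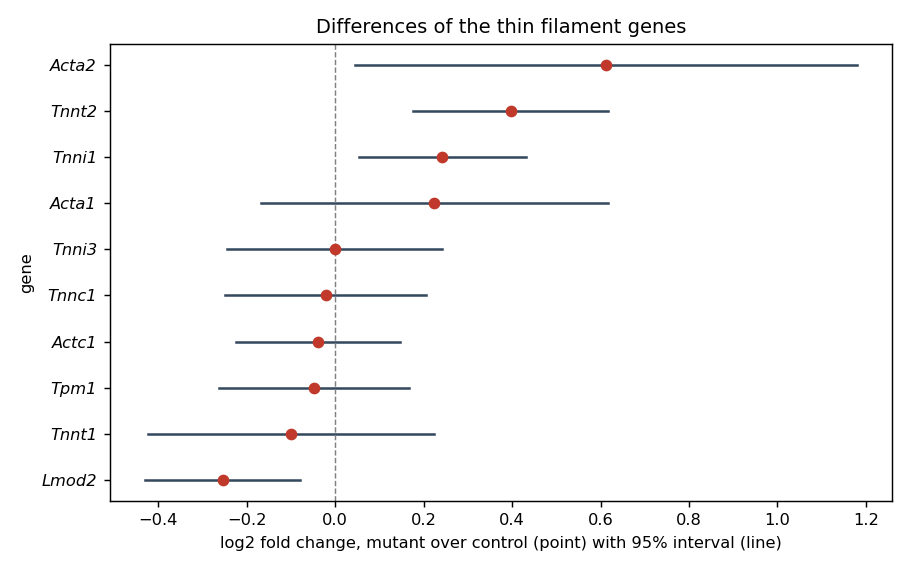
Log2 fold changes of the 10 genes, libraries labelled mutant over controls, as points with 95% intervals not adjusted for the number of genes. The intervals of Acta2, Tnnt2 and Tnni1 lie above 0 and that of Lmod2 below 0, while none of the 10 passed the adjusted threshold.

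The libraries labelled mutant differed from each other in this set. Mutant replicate 2 was below every control for 5 of the 10 genes, Tnnc1, Lmod2, Tnnt1, Tnni3 and Tpm1, and above every control for Tnnt2 and Tnni1, where 26.7% and 27% of all genes tested had such values. Mutant replicate 1 was above every control for 4 genes, Tnni1, Tnnt2, Acta2 and Tnni3, and below every control for Lmod2, against 18.6% and 20.4% of all genes tested. Together the 10 genes took 2.81% and 2.71% of all counts in the libraries labelled mutant and 2.50% to 2.63% in the controls. For Tnni3, Tnnt1, Tnnc1, Actc1 and Tpm1 the log2 fold change was above 0 without mutant replicate 2 and below 0 without mutant replicate 1. Leaving out 1 control also turned the sign for Tnni3 (0.036 without control replicate 1), Tnnc1 (0.020 without control replicate 4) and Tpm1 (0.0033 without control replicate 3). It did not do so for Tnnt1 or Actc1. Acta2, Tnnt2, Tnni1 and Acta1 kept a positive value and Lmod2 a negative one in all 7 fits that left out 1 library.

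**Figure D3:**
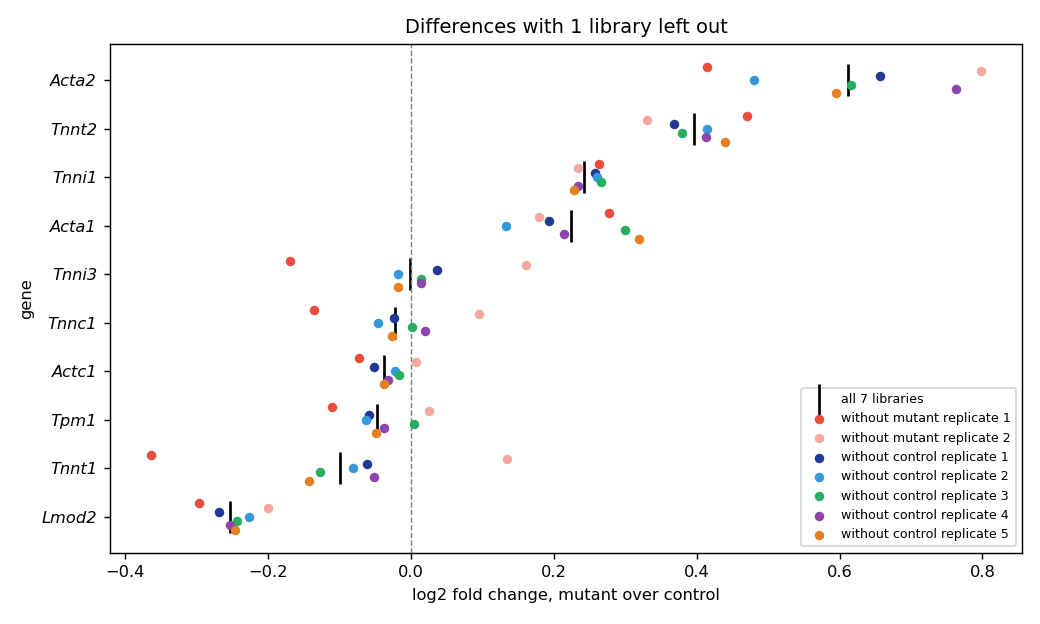
Log2 fold change of each gene with all 7 libraries (black ticks) and with 1 library left out (coloured points). The points without mutant replicate 1 and without mutant replicate 2 lie on opposite sides of 0 for Tnni3, Tnnt1, Tnnc1, Actc1 and Tpm1.

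The maturation readings compare forms within a library and so need no scaling to the library total. Counts of Tnni1 exceeded those of Tnni3 in every library, by 2.51 and 3.22 times in the libraries labelled mutant, against 2.25, 2.64, 2.44, 2.23 and 2.41 times in control replicates 1 to 5. Mutant replicate 2 had the highest ratio, and mutant replicate 1 lay below control replicate 2, so the groups overlapped. The mean log2 ratio was 1.51 ± 0.25 (SD, n = 2) in the libraries labelled mutant and 1.25 ± 0.10 (SD, n = 5) in the controls. The difference of 0.25 had p = 0.0952 in an exact permutation test, two-sided, whose 21 arrangements of the labels allow no p under 0.0476, and 0.19 after Benjamini-Hochberg adjustment over 4 ratios. Leaving out mutant replicate 1 gave 0.43 and leaving out mutant replicate 2 gave 0.07.

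The Acta1 to Actc1 ratio of counts was 0.0112 and 0.0127 in the libraries labelled mutant, against 0.00941, 0.00698, 0.0113, 0.00946 and 0.0125 in control replicates 1 to 5. The libraries labelled mutant were close to control replicates 3 and 5, and control replicate 2 was the lowest. The mean log2 ratio was -6.39 ± 0.13 (SD, n = 2) in the libraries labelled mutant and -6.68 ± 0.32 (SD, n = 5) in the controls, a difference of 0.29 with p = 0.333 by the exact two-sided permutation test, also 0.333 after adjustment over the 4 ratios. It was 0.17 without control replicate 2.

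Acta2 relative to Actc1 was 0.182 and 0.148 in the libraries labelled mutant, against 0.123, 0.0609, 0.1, 0.145 and 0.0998 in control replicates 1 to 5. The groups did not overlap, but mutant replicate 2 and control replicate 4 were almost equal. The difference of the mean log2 ratio was 0.69, with p = 0.143 by the exact two-sided permutation test and 0.19 after adjustment over the 4 ratios. Tnnt1 relative to Tnnt2 was 0.117 and 0.0753 in the libraries labelled mutant, against 0.161, 0.134, 0.13, 0.146 and 0.105 in control replicates 1 to 5. Mutant replicate 2 had the lowest ratio, and mutant replicate 1 lay above control replicate 5. The difference of the mean log2 ratio was -0.51, with p = 0.0952 by the exact two-sided permutation test and 0.19 after adjustment over the 4 ratios, while leaving out mutant replicate 1 gave -0.83 and leaving out mutant replicate 2 gave -0.19.

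**Figure D4:**
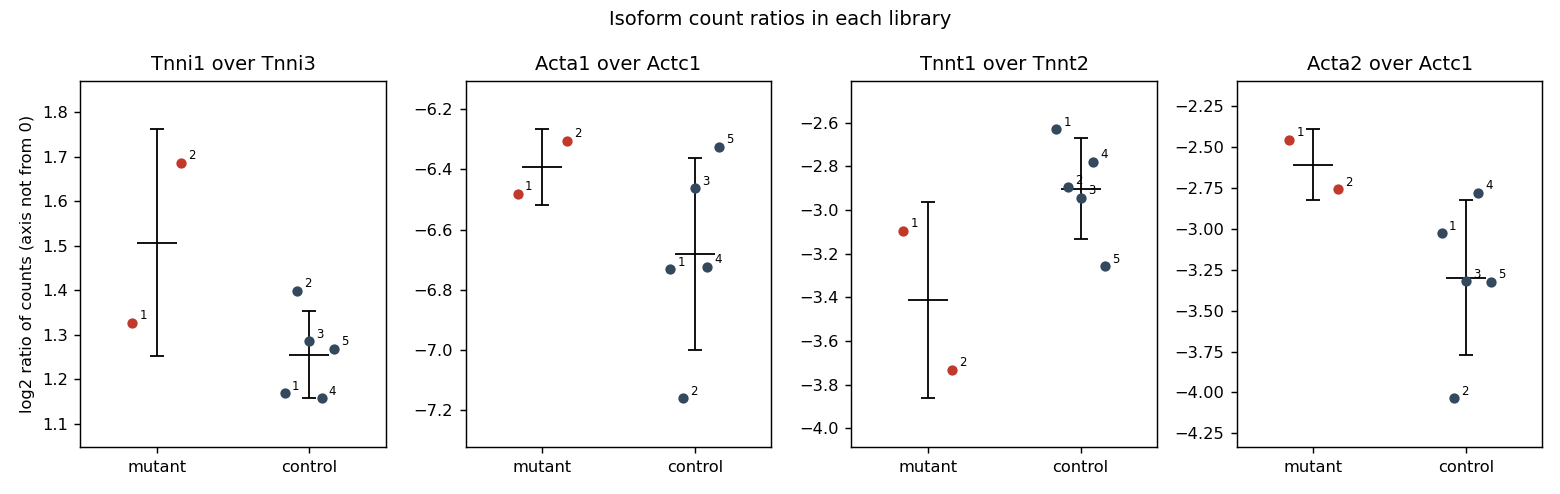
Log2 ratios of counts in each library for 4 pairs of thin filament genes, on axes that do not start at 0. Bars show the mean and SD of 2 libraries labelled mutant and 5 controls, digits are replicate numbers, and only the Acta2 to Actc1 ratio separates the groups.

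Levels can be compared between genes only per length. Per kilobase of the longest coding transcript, Actc1 led with 7571 RPKM in the libraries labelled mutant and 7775 ± 282 RPKM (SD, n = 5) in the controls. Tnnt2 followed with 4134 RPKM in the libraries labelled mutant and 3140 RPKM in the controls, then Tnnc1 with 2617 RPKM in the libraries labelled mutant and 2657 RPKM in the controls, and Tnni1 with 2306 RPKM in the libraries labelled mutant and 1950 RPKM in the controls. Tpm1, Tnni3, Acta2 and Tnnt1 came next, and the order of the 10 genes was the same in both groups. Acta1 was at 91.8 RPKM in the libraries labelled mutant and 78.6 RPKM in the controls, and Lmod2 at 56.3 RPKM in the libraries labelled mutant and 67.1 RPKM in the controls. Among the controls the ranges of the neighbours Tnnt2 and Tnnc1, Acta2 and Tnnt1, and Acta1 and Lmod2 overlapped. The order given is that of the group means, and it was not compared within each library. Tnnt2 held the second place with this length and the sixth with the union of all annotated exons, where it had 486 RPKM in the controls, while Actc1 stayed first and Tnnt1, Acta1 and Lmod2 the lowest.

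Within each family, shares per length put these levels on a common scale. Actc1 made up 87.5% and 89.3% of the transcripts of the 3 actins in the libraries labelled mutant, against 89.7% to 95.1% in the controls. Acta1 made up 0.997% and 1.15% in the libraries labelled mutant and 0.676% to 1.17% in the controls. Tnni1 was 66.5% and 71.8% of troponin I in the libraries labelled mutant, against 63.9% to 67.6% in the controls. Tnnt2 was 88.3% and 92.1% of troponin T in the libraries labelled mutant, against 84.5% to 89.4% in the controls. The troponin T and troponin I shares depend on the length used. The mean Tnnt1 to Tnnt2 ratio was 0.106 in the libraries labelled mutant and 0.152 in the controls per longest coding transcript. Per union of exons it was 0.33 in the libraries labelled mutant and 0.471 in the controls. The mean Tnni1 to Tnni3 ratio was 2.25 in the libraries labelled mutant and 1.89 in the controls per longest coding transcript. Per union of exons it was 1.63 in the libraries labelled mutant and 1.37 in the controls. In all 7 libraries the most abundant form of each family was thus Actc1, Tnni1 and Tnnt2.

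**Figure D5:**
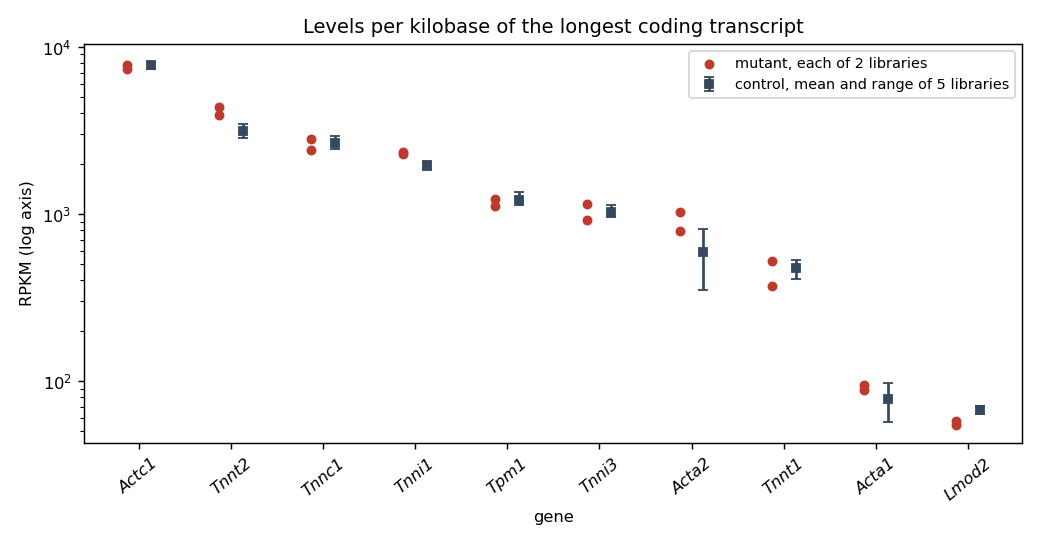
Level of each gene per kilobase of its longest coding transcript (RPKM, log axis), ordered by the control mean. Red points are the 2 libraries labelled mutant, and squares with bars are the mean and range of the 5 controls, so that Actc1 stands at the top and Lmod2 at the bottom in both groups.

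The other thin filament genes gave 1 call. Of 17 tested genes for other actins, troponins, tropomyosins, tropomodulins, leiomodins and nebulin-like proteins, 1 was called higher and 0 lower. Over all genes tested, 0.463% were called higher and 0.899% lower. The log2 fold change was negative for 13 of the 17, and its median was -0.22, against -0.01 over all genes tested. Nebl, which encodes nebulette, a nebulin-like protein that binds actin near the Z-disc, rose to 150 and 207 CPM in the libraries labelled mutant, against 86.4, 104, 107, 120 and 99.9 CPM in control replicates 1 to 5. Its log2 fold change of 0.79 (SE 0.14) had an adjusted p of 0.0248 by the edgeR quasi-likelihood test. With edgeR the adjusted p of Nebl was 0.258 when mutant replicate 2 was left out, 0.0539 when control replicate 1 was and 0.0632 when control replicate 2 was, and Nebl was not called in any of these fits.

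The 4 genes of that list with the highest mean CPM, a scale that does not take length into account, that were not called were Actg1, Actb, Tpm4 and Tmod1. Actb and Actg1 encode the cytoplasmic actins of all cells. Actb was at 877 and 661 CPM in the libraries labelled mutant, against 1080, 1075, 1052, 1050 and 1098 CPM in control replicates 1 to 5. Actg1 was at 1303 and 1069 CPM in the libraries labelled mutant, against 1468 to 1525 CPM in the controls. Both libraries labelled mutant were below all controls for both genes, as for 10.4% of all genes tested. The log2 fold changes were -0.48 (SE 0.11) for Actb and -0.33 (SE 0.10) for Actg1, with adjusted p of 0.0654 and 0.114 by the edgeR quasi-likelihood test. Tpm4, a tropomyosin mainly of non-muscle cells, was at 368 and 305 CPM in the libraries labelled mutant and 377 to 421 CPM in the controls. Tmod1, which caps the pointed ends of thin filaments, was at 410 and 432 CPM in the libraries labelled mutant and 366 to 420 CPM in the controls. Of 18 tested genes of actin capping, turnover, filament assembly and the SRF axis, 0 were called, against 1.36% of all genes tested. By the edgeR quasi-likelihood test 6 had an unadjusted p under 0.05, against 17.6% of all genes tested. The log2 fold change was positive for 15 of the 18, and its median was 0.15.

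The authors' deposited table, which holds 668 of the 14691 genes tested here, lists 7 genes of these other lists. They are 3 of the 18 genes of the first list and 4 of the 18 of the second. These 7 were picked out here after their values were seen. In the authors' deposited table, Nebl had a log fold change of 0.78, Myocd, the SRF coactivator myocardin, 0.69, Actn2, sarcomeric alpha-actinin, 0.48, the formin Fhod3 0.47 and the actin-binding Xirp1 0.41. Actb was listed there at -0.48 and Tnnt3, fast skeletal troponin T, at -0.99. With edgeR as used here, Myocd had an adjusted p of 0.054, Xirp1 of 0.0543, Actn2 of 0.0566, Fhod3 of 0.0743 and Tnnt3 of 0.105.

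Of the marker lists of cell types, those of mesenchyme, atrial cardiomyocytes and macrophages held 3 or more calls each. Over all genes tested, 0.899% were called lower and 0.463% higher. Of 10 genes of cushion mesenchyme and fibroblasts, 7 were called lower, and their summed level was 1633 and 1635 CPM in the libraries labelled mutant, against 2680 to 4619 CPM in the controls. Of 10 genes listed as ventricular cardiomyocyte markers, with Actn2 of the filament assembly list among them, 0 were called by edgeR. An unadjusted p under 0.05 was found for 7, against 17.6% of all genes tested. Of these 7, Myl2, the ventricular myosin regulatory light chain, was lower, at 6263 and 5726 CPM in the libraries labelled mutant against 7433 to 10784 CPM in the controls. The other 6 were higher, among them Myh7, a cardiac myosin heavy chain, at 11650 and 14865 CPM in the libraries labelled mutant against 7718 to 10248 CPM in the controls. The 10 genes had a median log2 fold change of 0.37 and sums of 25382 and 29007 CPM in the libraries labelled mutant and 22018 to 27829 CPM in the controls. Of 10 genes listed as atrial markers 5 were called lower, Myl7, Sln, Nr2f1, Stard10 and Gja5. The sums of the atrial list were 5010 and 4836 CPM in the libraries labelled mutant and 4527 to 7133 CPM in the controls. Myl4 and Nppa, the 2 genes of that list with the highest levels, were not called. The cells of the left ventricle that held these transcripts were not identified. The summed macrophage markers were at 193 and 132 CPM in the libraries labelled mutant, against 202 to 283 CPM in the controls, with 3 of 9 called lower, and of the epicardial markers 1 of 10 was called lower. The 10 endothelial, the 8 erythroid and the 4 tested skeletal muscle markers had 0 calls by edgeR and 0 unadjusted p under 0.05. The part of these cells in the values of the thin filament genes was not tested. Tnnt1, Tnni1 and Acta1 are also genes of skeletal muscle, whose regulator Myf5 had 0 counts in every library and whose regulator Myod1 did not exceed 0.163 CPM in any. The regulator Myog was at 0.892 and 0.656 CPM in the libraries labelled mutant and 0.643 to 1.52 CPM in the controls, and Actn3, the alpha-actinin of fast fibres, was at 5.10 and 3.94 CPM in the libraries labelled mutant and 3.21 to 6.41 CPM in the controls. Ckm, the muscle creatine kinase that the heart also expresses, was at 228 and 256 CPM in the libraries labelled mutant and 117 to 274 CPM in the controls. The part of skeletal muscle cells in the values of these 3 genes was not tested.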

How the data were processed

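Sample titles gave the group and replicate number. The table the authors deposited holds unnormalized read counts for each gene and library. The submitters' processing notes name the mm10 build, limma 3.30.13, edgeR 3.16.5, R 3.3.2, featureCounts and TopHat2 2.1.1, without roles, and the annotation and strand setting were not stated there. A second deposited table lists the genes the authors found significant, with a log fold change, a p-value and an FDR. The authors' deposited fold change was taken as log2 (mutant over control), since it differed from the log2 values computed here by a median of 0.00542.

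The analysis used edgeR 4.0.16 in R 4.3.3. The filter was filterByExpr (minimum count 10, total 15), the scaling TMM (factors 0.988 to 1.01), and the test glmQLFTest after a robust glmQLFit with group alone in the model. The SE is the size of the log2 fold change divided by the square root of F, and 95% intervals use the t distribution with the degrees of freedom of the fit. Between any pair of libraries in a group the chi-square per degree of freedom was 10.5 to 33.6, so none was a copy of another. The labels do not say whether replicate numbers 1 and 2, shared by the groups, pair the samples, and the main fit used no pairing. CPM values use the TMM-adjusted library totals, while shares of all counts use the plain totals. Ratios used counts plus 0.5. Gene spans, lengths and 50-base windows came from GENCODE M21, where Dnaaf3 overlaps exons of Tnni3. Scripts were tested on simulated data. The genes and lists were chosen with earlier results of these data known. All 10 genes were named, with every called gene of the 2 lists of related genes and the 4 uncalled genes of highest mean CPM in the first. Alternatives used DESeq2 1.42.0, limma 3.58.1 (voom), other scalings and filters, and fewer libraries. Plots used matplotlib 3.10.9 in Python 3.11.15.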

Additional observations from a re-analysis of the deposited data

How the results depend on the processing

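The count of called thin filament genes, 0 of 10, was also 0 with relative log expression (RLE) scaling in edgeR, upper quartile scaling or limma-voom. It stayed at 0 with both other low count filters, no robust estimation, haemoglobin genes removed, or only the libraries that express Xist. It was 2 with DESeq2 (Tnnt2 and Tnni1), 0 to 1 with 1 control library left out (1, Tnnt2, without control replicate 5), and 3 with the replicate number as a block (Acta1, Acta2 and Tnnt2). The deviations of same-numbered libraries from their group means had correlations of 0.0775 and 0.0117, which with 2 libraries labelled mutant is a weak check of pairing. The count of 1 called gene among the other thin filament and assembly genes was 9 with DESeq2, 5 without a low count filter, 8 with the replicate block, 0 among the libraries that express Xist, 0 without control replicate 5 and mutant replicate 2, and 0 to 4 with 1 library left out: 0 when the library was mutant replicate 2 or either of control replicates 1 and 2, 2 without control replicate 4, 3 without control replicate 5 and 4 without mutant replicate 1. The adjusted p of Tnnt2 ranged from 0.00492 to 0.463 over the 18 alternatives, that of Tnni1 from 0.0355 to 0.575 and that of Lmod2 from 0.0697 to 0.62 (edgeR, DESeq2 and limma). Over all genes the calls numbered 200, against 783 with DESeq2, 811 with the replicate block, 280 without a low count filter, 66 among the libraries that express Xist, 52 without control replicate 5 and mutant replicate 2, and 12 to 275 with 1 library left out, so these counts moved over all genes as well. The replicate block gave a log2 fold change of 0.53 for Acta1 and 0.90 for Acta2. Their adjusted p by the edgeR quasi-likelihood test were 0.0166 and 0.000401, against 0.55 and 0.249 without the block. The causes were not tested.

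Among values near 0 the sign turned. Tnni3 was at 0.0069 with RLE scaling in edgeR, 0.0081 with DESeq2 and 0.0077 without a low count filter. It was at 0.0036 with a filter of 1 CPM, 0.0056 without haemoglobin genes and 0.058 among libraries that express Xist. Without control replicate 5 and mutant replicate 2 it was at 0.13. That last setting gave 0.083 for Tnnt1, 0.082 for Tnnc1 and 0.015 for Tpm1, and the replicate block gave 0.053 for Tnnc1 and 0.030 for Tpm1. With 1 library left out, the log2 fold change ran from -0.17 to 0.16 for Tnni3, -0.36 to 0.13 for Tnnt1, -0.14 to 0.10 for Tnnc1, -0.073 to 0.0068 for Actc1 and -0.11 to 0.025 for Tpm1. All 4 ratios kept their direction under all alternatives. The exact permutation test of the ratios allows no p under 0.0476.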
